A study of Mus musculus with 4 samples.

Results

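The simple epithelial keratins Krt7, Krt8, Krt18, Krt19, Krt20 and Krt23 are 6 of the 23281 genes, and 6 of the 52 numbered keratin genes, in a table of RNA sequencing values from mouse nasal basal cells. They were picked by symbol, and were chosen on measured values: several of them stand high in the cultured cells of these same libraries. Their levels, and their differences between the cultured and the sorted cells, are therefore given as a description with no test. The cultured group holds 3 libraries of horizontal basal cells (HBCs) of the olfactory epithelium, from wild-type mice, grown to passage 3 with no sort given. The other group is 1 library of respiratory basal cells (RBCs), microdissected and sorted as TdTomato+ from the strain KRT5-CreER;Ai9-fl(stop)TdTomato, in which the keratin 5 promoter drives an inducible Cre recombinase that switches on the red reporter. The sources used here do not give ages, the number of animals or the timing of Cre induction. Tissue of origin, strain, culture and sorting differ together between the groups, so their effects cannot be told apart.

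Keratins form the intermediate filaments of epithelial cells and assemble only as pairs of a type I and a type II protein. Simple keratins are those of single-layered, glandular and ductal epithelia, whereas the basal layer of stratified epithelia is marked by Krt5 with Krt14. Of the members, Krt7 and Krt8 are type II and Krt18, Krt19, Krt20 and Krt23 are type I. In the olfactory epithelium Krt8 and Krt18 are known as keratins of sustentacular cells and Bowman's glands, and HBCs as Krt5 and Krt14 cells.

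The proximal promoters are shown for some of the members with a higher level in HBCs than in RBCs, whether abundant (Krt7, Krt8, Krt18) or much lower (Krt20). Krt23 was also higher in HBCs, and its stretch was searched but is not printed. Promoter sequences from RefSeq (build GRCm38.p6) matched 5 of the 6 members, the exception being Krt19. Each runs 5′ to 3′ from 100 bases before to 10 bases after the RefSeq start, and capitals mark a TATA box core (TATAA) or a GC box (GGGCGG), searched on both strands. The stretches lie at chr15:101412303-101412412 (Krt7, plus strand), chr15:102004333-102004442 (Krt8, minus strand), chr15:102028116-102028225 (Krt18, plus strand) and chr11:99438144-99438253 (Krt20, minus strand).
Krt7: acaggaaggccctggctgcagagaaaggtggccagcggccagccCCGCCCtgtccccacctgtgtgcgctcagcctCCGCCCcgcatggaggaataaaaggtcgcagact
Krt8: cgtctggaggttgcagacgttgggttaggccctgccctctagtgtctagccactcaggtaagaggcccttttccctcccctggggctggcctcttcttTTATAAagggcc
Krt18: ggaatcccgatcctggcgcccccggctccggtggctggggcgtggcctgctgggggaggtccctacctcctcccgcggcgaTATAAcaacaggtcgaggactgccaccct
Krt20: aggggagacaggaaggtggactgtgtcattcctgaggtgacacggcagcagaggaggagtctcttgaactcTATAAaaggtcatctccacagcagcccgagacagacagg

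The letters TATAA stood at positions -19 to -15 in Krt18, at -29 to -25 in Krt20 and across the annotated start, from -1 to 4, in Krt8, where an overlapping match lay on the other strand. The Krt7 stretch held GGGCGG on the other strand at -56 to -51 and at -24 to -19. The Krt23 stretch held neither. Among all 32851 RefSeq promoter stretches of the same length, 10.8% held TATAA and 25.8% held GGGCGG. The AP-1 motif TGANTCA, present in 3.03% of all stretches, was in none of the 5. These matches describe the letters in this window only.

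All values below are depth-scaled FPKM (fragments per kilobase of transcript), for which each library's deposited values were divided by that library's own factor. They are per length, so levels of different keratins can be set side by side. Means over the cultures carry their SD (n = 3), whereas RBCs have 1 library and no replicate. The labels do not say that the 3 cultures came from separate animals, so their spread may be technical. In bulk RNA, a larger share of cells that express a gene and more transcript per cell cannot be told apart.

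In the cultures, 4 of the 6 simple keratins were among the 33 most abundant genes of each library, and every member was higher in each of the 3 HBC libraries than in the RBC library. Krt7 led with 49094 ± 899, followed by Krt18 (38524 ± 913), Krt19 (37963 ± 392) and Krt8 (28825 ± 786). Krt23 was far lower at 4176 ± 29.9 and Krt20 lower still at 597 ± 27.5. The ranges of Krt18 and Krt19 overlapped, while the other neighbours in this order did not. The order in the RBC library was different, with Krt18 first, then Krt19, Krt8, Krt23 and Krt7, and Krt20 listed at 0. Since these genes were chosen for their level in the cultures, nothing is read from their all being higher there. For reference, the test over 16438 genes called 12.8% of them higher in HBCs.

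**Figure D1:**
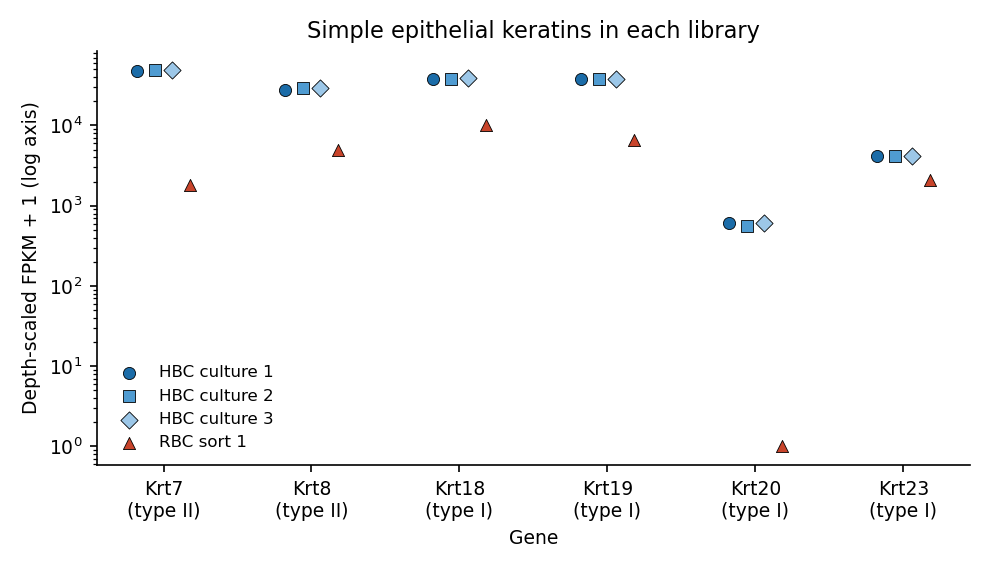
Depth-scaled FPKM plus 1 on a log axis for the 6 simple keratins (x axis), with 1 point per library: 3 HBC cultures in blue and the RBC sort in red. The HBC points lie together and above the RBC point for each gene, and the gap is 27.2-fold for Krt7 and 2.0-fold for Krt23; Krt20 is listed at 0 in the RBC library.

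Among the type II members, Krt7, a keratin of ducts and glands, was at 48062, 49704 and 49517 in HBC libraries 1, 2 and 3 and at 1806 in the RBC library. The cultures were thus high and close together, with no overlap, and their mean was 27.2-fold above the RBC value (26.6-fold to 27.5-fold for single HBC libraries). Krt7 ranked between 15 and 16 among all genes in the cultures and 684 in the RBC library. Krt8, the most widespread simple type II keratin and the usual partner of Krt18, was at 27960, 29016 and 29498 in the cultures and at 4912 in RBCs. Its mean was 5.87-fold higher in HBCs, again without overlap, and it ranked 30 to 33 in the cultures and 228 in the RBC library. Krt8 has a processed pseudogene (Krt8-ps in GENCODE M21), and reads shared with it could have been counted either way.

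Among the type I members, Krt18 was at 37939, 38058 and 39575 in the cultures and at 10046 in the RBC library, a 3.83-fold difference. It was the highest simple keratin of the RBC library, where it ranked 104. Krt19, a keratin of ducts and of many progenitor cells whose protein has almost no tail domain, was at 37683, 38411 and 37794 in the cultures and at 6546 in RBCs. The difference was 5.80-fold, close to that of Krt8 and larger than that of Krt18. Both genes were high in all 3 cultures, and neither overlapped the RBC value.

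Krt20, known from intestinal epithelium, urothelial umbrella cells and Merkel cells, was at 615, 565 and 610.3 in the cultures. It was listed at 0 in the RBC library, and no fold is given. Its level was only 0.375% ± 0.020 (SD, n = 3) of the summed simple keratins in the cultures. Krt23, a type I keratin whose role is less well known, was at 4206, 4146 and 4176 in the cultures and 2084 in the RBC library. Its 2.0-fold difference was the smallest of the group. It was below 2-fold when the values were used as deposited (log2 difference 0.89), with equal library sums (0.90) or under quantile normalization (0.65). The coefficient of variation across the cultures ran from 0.716% for Krt23 to 4.62% for Krt20, against a median of 3.29% over the 1693 genes averaging 1000 or more.

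Simple keratins made up most of the keratin values in the cultures and a minority in the sorted cells. They held 70.1%, 69.8% and 70.5% of the summed FPKM of the 52 keratin genes in HBC libraries 1, 2 and 3, and 27.2% in the RBC library. The basal keratins Krt5, Krt14, Krt15 and Krt17 held 17.8% ± 0.355 (SD, n = 3) in the cultures and 68.1% in RBCs. The members also took 1.60% ± 0.0252 of all summed values in the cultures, against 0.273% in the RBC library. Shares and ratios within a library do not depend on the factor by which the library was scaled.

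**Figure D2:**
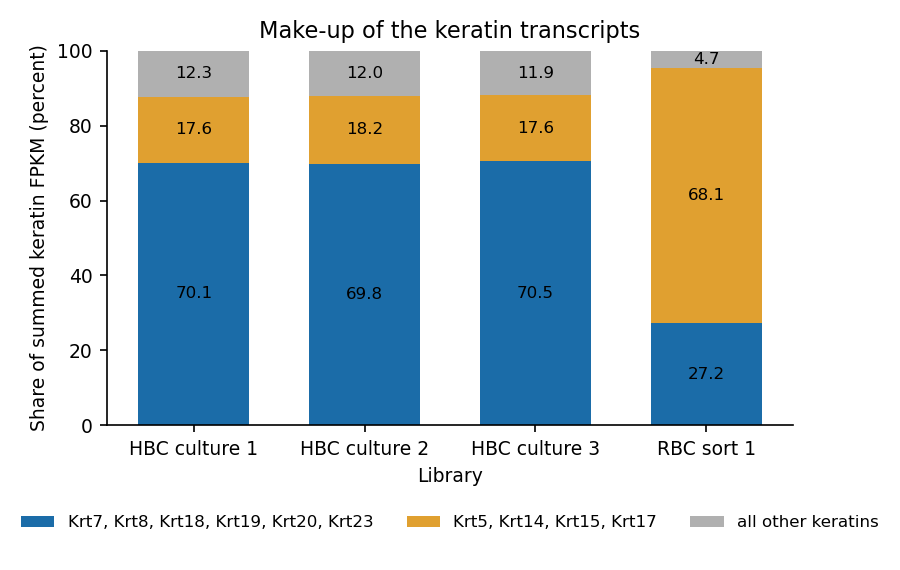
Share of summed keratin FPKM (percent, y axis from 0) held by the simple keratins, by the basal keratins Krt5, Krt14, Krt15 and Krt17, and by all other keratins, for each library (x axis). The simple keratins hold 69.8% to 70.5% in the 3 HBC cultures and 27.2% in the RBC library, where the basal keratins hold 68.1%.

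The balance among the simple keratins themselves differed as well. Krt7 took 30.8% ± 0.210 of the summed simple keratins in the cultures and 7.11% in RBCs, while Krt18 took 24.2% ± 0.379 and 39.6%. Krt8 and Krt19 held similar shares in both groups, at 18.1% ± 0.219 and 19.3% for Krt8 and at 23.9% ± 0.350 and 25.8% for Krt19. Krt23 took 2.62% ± 0.0554 and 8.21%. The ratio of Krt7 to Krt8 was between 1.68 and 1.72 in the cultures and 0.368 in the RBC library. For the Krt8 and Krt18 partners the ratio was 0.737 to 0.762 in the cultures and 0.489 in RBCs. Summed type II over summed type I simple keratin was 0.945 to 0.970 in the cultures, so the types were nearly level there, and 0.360 in the RBC library. For each of these ratios the RBC value lay outside the range of the cultures, though with a single RBC library its own spread is unknown.

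Set against the basal keratins Krt5, Krt14 and Krt15, the order was turned over in the pairs below. Krt17, also counted with the basal keratins above, was itself 2.15-fold higher in HBCs (17961 ± 791 against 8369). Krt7 stood 2.61 to 2.70 times as high as Krt5, the type II basal keratin, in the cultures and at 0.0683 of its level in RBCs. Krt18 over Krt14, the type I basal keratin, was 13.9 to 15.8 in the cultures and 0.865 in RBCs. Krt19 over Krt15 was 29.4 to 31.0 in the cultures and 0.382 in RBCs.

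**Figure D3:**
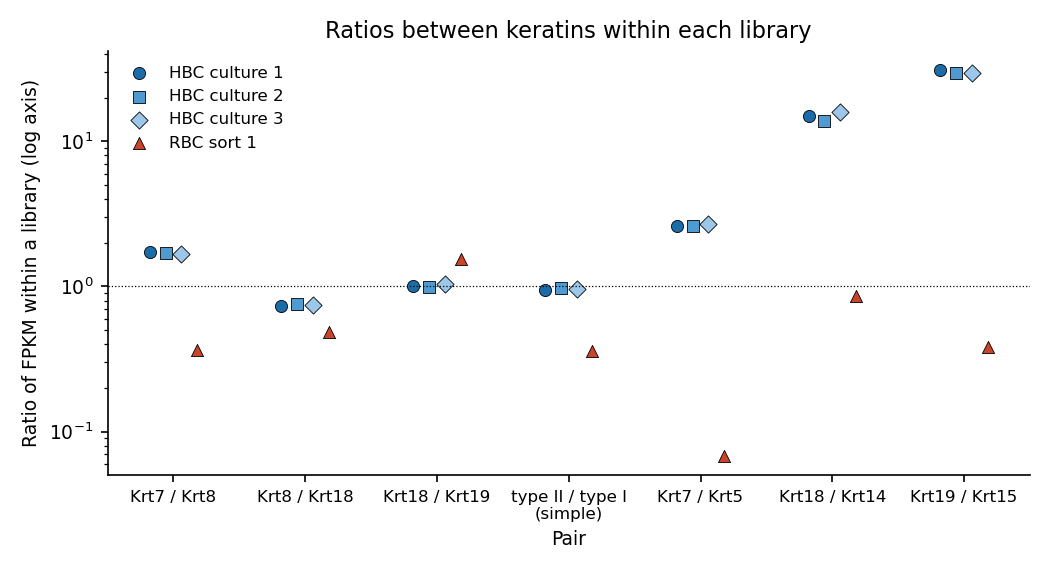
Ratio of FPKM between keratins within a library (log axis), with 1 point per library: 3 HBC cultures in blue and the RBC sort in red. The dotted line marks equal levels; Krt7 over Krt8 is 1.68 to 1.72 in the cultures and 0.368 in the RBC library, and Krt19 over Krt15 is at least 29.4 in the cultures and 0.382 in the RBC library.

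The genome order of RefSeq (GRCm38.p6) places Krt8 and Krt18, a type II and a type I gene, side by side among protein-coding genes on chromosome 15, and Krt20 and Krt23 side by side on chromosome 11. Outer neighbours differed from the members in level and, in part, in direction. Krt78, next to Krt8, had 0.763 ± 0.661 in the cultures and 4.0 in the sorted cells. The translation factor Eif4b, next to Krt18, had 3592 ± 13.8 and 2908. Neither was called. Krt80, next to Krt7, was not called either (147 ± 16.7 and 185, limma adjusted p = 0.161). Krt39, next to Krt23, was low in both groups and 4.75-fold higher in HBCs (3.53 ± 0.967 against 0.742, limma adjusted p = 0.0346). Both of these values lie below 5, so Krt39 was not tested with a minimum of 5. Krt15, the neighbour of Krt19, was at 17156 in RBCs and 1264 ± 41.4 in HBCs, a 13.6-fold difference (limma adjusted p = 0.000163).

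Genes near each member were sought among non-members only, so the counts below leave out the other simple keratins. Nearness was the largest difference on the log2(value + 1) scale in any of the 4 libraries. Near genes were few for the abundant members. For Krt8 the nearest were 2410006H16Rik (largest difference 0.30) and the glycolytic enzyme Pkm (0.40), with 4 genes within 0.5. Krt18 and Krt19 had the same pair nearest, the lactate dehydrogenase Ldha (0.46 and 0.27) and the annexin Anxa2 (0.47 and 0.19), with 2 and 3 genes within 0.5. No gene lay within 0.5 of Krt7, and the nearest was Krt6a, a keratin of activated keratinocytes (0.93), then B2m (1.01). For Krt20 they were Ifi205 (0.24) and Lce1f (0.34), both likewise listed at 0 in RBCs, and for Krt23 Adss (0.04) and Srp14 (0.07), with 125 genes within 0.5. With 3 libraries of 1 kind and 1 of the other, this measure mostly reflects level and the difference between the groups.

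Other keratins moved in both directions between the groups. Calls here and below come from limma over all genes (adjusted p under 0.05 and at least 2-fold), which called 12.8% of genes higher in HBCs and 34.2% higher in RBCs, with a median difference of all genes of -0.45 on the log2 scale (HBC minus RBC). Of called genes, 27.3% were higher in HBCs, and under quantile normalization 52.1%. The spread in this fit came from the 3 cultures alone, so the lone RBC library was assumed to vary as they do. Of 14 other type I keratins tested, 4 were called higher in HBCs and 6 higher in RBCs. Of the 6, 2 were listed at 0 in all 3 cultures, which fixes their call. The number called higher in HBCs was 3 with values as deposited and with a pseudocount or minimum of 5. It was also 3 without HBC library 2 or 3. The number called higher in RBCs ran from 4 under quantile normalization to 7 with equal sums. Krt13, a keratin of mucosal suprabasal cells, was 8.78-fold higher in HBCs (884 ± 19.9 against 101). Krt10, of differentiating keratinocytes, was 23.9-fold higher in RBCs (792 against 33.2 ± 6.79), and Krt14 was 4.49-fold higher there. Of 14 other type II keratins tested, 2 were called higher in HBCs and 7 in RBCs (3 in RBCs under quantile normalization).

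Krt6a was 24.8-fold higher in HBCs (26046 ± 127 against 1049), and Krt76, a keratin of oral and nasal mucosa, was 56.4-fold higher in RBCs (1307 against 23.2 ± 5.64). Krt4, of mucosal suprabasal cells, was 5.12-fold higher in RBCs (350.2 against 68.3 ± 5.67). The other type II keratin called higher in HBCs was the hair keratin Krt84 (7.48 ± 2.36 against 0.780), which did not pass when HBC library 1 (limma adjusted p = 0.0905) or 2 (0.0504) was left out. Krt5 itself was not called (18579 ± 368 in HBCs and 26422 in RBCs). The median difference was -1.34 for the type I list and -1.32 for the type II list, both below that of all genes.

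**Figure D4:**
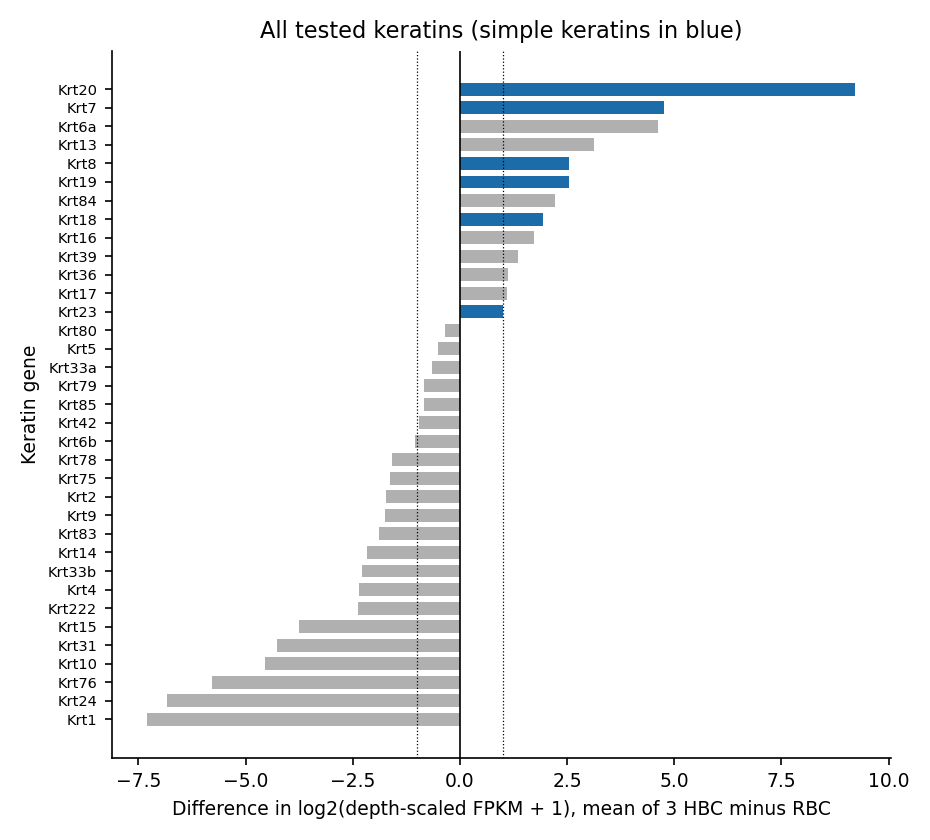
Difference in log2(depth-scaled FPKM + 1), mean of 3 HBC cultures minus the RBC library, for every tested keratin gene (y axis), with the simple keratins in blue and dotted lines at 2-fold. The blue bars all point to HBCs, from 1.0 for Krt23 to 9.22 for Krt20, whose bar length depends on the added 1 because it is listed at 0 in RBCs; other keratins point both ways.

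Partner genes of simple and columnar epithelium were counted in the same way. Of 18 tested, 7 were called higher in HBCs and 2 in RBCs, against 12.8% and 34.2% of all genes, and the list's median difference was 0.68. Under quantile normalization the counts were 5 and 4, and those over all genes were 3515 and 3238. The tight junction genes Cldn4, Cldn7 and Ocln led. Cldn4 was at 14477, 15587 and 15183 in the cultures and at 2163 in RBCs, a 6.97-fold difference (limma adjusted p = 0.000476). Ocln was 6.92-fold higher (722 ± 37.8 against 104) and Cldn7 5.39-fold higher (4756 ± 253 against 883). Others called higher in HBCs included the polarity gene Crb3 (4.09-fold), the adhesion molecule Epcam (2.2-fold) and Cldn3 (2.14-fold). The exceptions were Cldn8 (3.22 ± 1.91 in HBCs and 756 in RBCs) and the transmembrane mucin Muc1 (239 ± 14.2 and 983). The adherens junction gene Cdh1 was not called (4457 ± 103 and 2417).

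Genes that anchor or organise keratin filaments mostly stayed within 2-fold or did not pass the test. Of 17 tested, 13 were not called, 1 was called higher in HBCs and 3 higher in RBCs, against 12.8% and 34.2% of all genes. Ppl, the plakin periplakin, was 2.26-fold higher in HBCs (801 ± 18.9 against 355). Desmoplakin, Dsp, which ties keratins to desmosomes, was 3.42-fold higher in RBCs (2449 against 716 ± 5.42, limma adjusted p = 5.17e-05). Dst, a linker of hemidesmosomes, was 5.03-fold higher in RBCs (469 against 93.2 ± 3.60), and Eppk1, epiplakin, was 2.81-fold higher (101 against 36.0 ± 2.19), but not called under quantile normalization (log2 difference -0.56). Plec, plectin, was not called (516 ± 15.1 and 763).

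Of 15 other intermediate filament genes tested, 1 was called higher in HBCs and 8 in RBCs, against 12.8% and 34.2% of all genes. Of the 8, 1 was listed at 0 in all 3 cultures, which fixes its call. Under quantile normalization the counts were 4 and 3. The gene higher in HBCs was Nes, nestin (67.7 ± 1.53 against 11.8). Vim, the mesenchymal filament protein vimentin, was 2.56-fold higher in RBCs (249 against 97.2 ± 3.92), and Synm, synemin, 14.9-fold higher (91.1 against 6.11 ± 0.738). Sync was at 5.88 ± 1.56 and 16.9 (limma adjusted p = 0.0482), a call that was lost with equal medians, with a pseudocount of 0.1, with no filter and without HBC library 1 or 3, and that turned direction under quantile normalization (log2 difference 0.96). The number called higher in RBCs was also 4 with a pseudocount of 0.1, 5 with a minimum of 5, 5 without HBC library 1 and 4 without HBC library 3. Non-epithelial markers moved the same way. Of 25 tested genes of leukocytes, fibroblasts and endothelium, 22 were called higher in RBCs, against 34.2% of all genes. Of these 22, 3 leukocyte and 2 endothelial genes were at 0 in all 3 cultures, which fixes their call. Summed levels in RBCs and in the cultures were 15025 and 507 to 583 for leukocytes, 7744 and 48.3 to 68.3 for fibroblasts, and 107 and 2.81 to 3.49 for endothelium. The highest of each list in RBCs were the lysozyme gene Lyz2 (14733 against 21.5 ± 2.99), the matrix proteoglycan Dcn (6885 against 43.9 ± 11.8) and the endothelial gene Plvap (31.6 against 1.10 ± 0.526). Lyz2 thus made up nearly all of the leukocyte sum in RBCs, where Ptprc was at 10.5. In the cultures most of that sum was Cd68 (514 ± 42.5), which was called higher in HBCs. The part of non-epithelial cells in these differences was not tested.

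Transcription factors known to act on simple keratin promoters were called at shares near those of all genes in the main scaling, but not under quantile normalization. Of 19 tested, 2 (10.5%) were called higher in HBCs and 8 (42.1%) higher in RBCs, against 12.8% and 34.2% of all genes. Under quantile normalization the counts were 2 and 10, and those over all genes were 3515 and 3238. With equal sums the list's counts were also 2 and 10, and those over all genes were 1868 and 5920. The AP-1 subunit Fos stood 121-fold higher in RBCs (26517 against 219.9 ± 6.71), and its partner Jun 32.2-fold (14360 against 445 ± 11.7). Fosl1, another AP-1 subunit, was 19.3-fold higher in HBCs (400.5, 445 and 388 against 21.3, limma adjusted p = 0.000630). Grhl3 was also higher in HBCs (137 ± 3.55 against 55.2). Tfap2c was 19-fold higher in RBCs (167 against 8.77 ± 3.82), and did not pass when HBC library 3 was left out (limma adjusted p = 0.0713). The epithelial factors Elf3 (3493 ± 78.1 and 1862) and Klf4 (664 ± 18.9 and 851) were not called.

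All 10 listed markers of basal cells were at 10 or more in each group. As deposited, 11134 of the 23281 genes reached that level in every library. In RBCs all 10 sustentacular and all 8 fibroblast markers reached it too. The basal markers summed to 26596 to 27752 in the cultures and 67573 in RBCs. Of these 10, 7 were called higher in RBCs, against 34.2% of all genes, and the other 3 were not called. Among the 7 were Trp63 (7.88-fold) and Icam1 (29.8-fold). Markers of cell types known for simple keratins were also measured. Of 10 sustentacular genes, 9 were called higher in RBCs, with summed levels of 42577 to 44944 in the cultures, nearly all of it the reductase Cbr2 (42503 ± 1207), and 250452 in RBCs, where Cbr2 was at 212906. Cyp2g1, Cyp1a2 and Gpx6 were listed at 0 in all 3 cultures, which fixes their call. Of the 10 sustentacular genes, 3 averaged 10 or more in the cultures: Cbr2, Lrrc26 (1034 ± 28.3) and Epas1 (333 ± 7.93). Of 8 Bowman's gland genes, 5 were called higher in RBCs and 2, Aqp5 and Ltf, in HBCs. Of those 5, 4 were listed at 0 in all 3 cultures, among them Dcpp1 and Muc5b, which fixes their call. Ltf, the secreted iron-binding protein lactoferrin, was at 118867 ± 1159 in the cultures and 18041 in RBCs. All 6 tested ciliated cell genes (summed 183 to 217 in the cultures and 5131 in RBCs) and all 9 tested secretory cell genes (10798 to 11518 and 524778) were called higher in RBCs. Of these, 1 ciliated and 3 secretory cell genes were at 0 in all 3 cultures, which fixes their call. The secreted airway protein Bpifa1 made up most of the secretory sum in RBCs (438313 against 7.87 ± 2.59), and Lypd2 most of it in the cultures (9993 ± 329 against 22953). The highest ciliated cell genes were Rsph1 in the cultures (117 ± 15.6 against 706) and Tppp3 in RBCs (1754 against 13.4 ± 4.17). Which cells of the RBC sample carried Krt8, Krt18 and Krt19 was not tested.

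Markers of cell types in which Krt20 is known were measured in the same libraries. Of 6 uroplakin genes of umbrella cells, 3 averaged 10 or more in the cultures (Upk3bl, Upk1b and Upk2). Upk3a was listed at 0 in the cultures, and Upk1b, the highest in RBCs, was 41.1-fold higher there (1242 against 30.2 ± 6.81). Upk3bl was 35.7-fold higher in HBCs (2949 ± 66.0 against 82.6). Of 8 Merkel cell genes, 2 averaged 10 or more in the cultures, the highest being Isl1 (96.2 ± 7.10 against 649 in RBCs). None of 10 intestinal genes averaged 10 or more in the cultures, where their summed level was 14.4 to 21.7. The highest of them was Lgals4 (7.35 ± 4.23 against 146 in RBCs). Of 6 genes of mesothelium, a further simple keratin tissue, 4 were tested. Of these, 1 was called higher in HBCs and 0 in RBCs, against 12.8% and 34.2% of all genes. It was Msln, 46.6-fold higher in HBCs (15671 ± 414 against 336). Wt1 (0.107 ± 0.186 in the cultures) and Lrrn4 (0.118 ± 0.204) were at 0 in RBCs and too low to be tested.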

How the data were processed

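RNA was sequenced from 3 libraries of cultured HBCs and 1 of sorted RBCs. STAR, Cuffnorm, Cufflinks 2.2.1 and build mm9 are listed, with no role or order, in the submitters' processing notes. Annotation and strand setting were not given in the sources used here. As deposited by the authors, the table holds FPKM values, 1 column per library, with sums of 8377232, 10335122, 10855996 and 9877606. Where all values were below 4, 12.4% to 26.0% of genes had a ratio within 2% of 1 between a pair of libraries, so the values appeared to carry library depth. Depth in reads is unknown, and no counting interval is given.

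Each library was divided by its median ratio to the geometric mean, taken over 11134 genes whose values reached 10 in every library (factors 0.845, 1.05, 1.07 and 1.06). Genes with a mean of the group means of at least 1 (16438) were tested with limma 3.58.1 (R 4.3.3), trended, two-sided, on log2(value + 1), with Benjamini-Hochberg adjustment. Folds are ratios of scaled values. All 1254 tested genes at 0 in the 3 cultures were called, as the filter fixes. The fit was tested on simulated data in which every library had a spread drawn from the cultures and few genes differed. That test cannot show how the calls would fare if the RBC library varied more. No 2 cultures shared an identical value among 11415 genes at 10 or more in all 3.

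The members, gene lists and this scaling were chosen with earlier results of these data known. Named from each related list were up to 4 called genes above 0 in every library with the largest difference. Also named were the highest gene per group from each marker list and, for each member, the 2 nearest non-member genes. Crb3, Epcam, Cldn3, Cdh1, Plec, Elf3, Klf4, Grhl3, Krt17 and other marker genes were named after their values were seen. Alternatives were other scalings, pseudocounts of 0.1 and 5, no filter or a minimum of 5, and leaving out each culture.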

Additional observations from a re-analysis of the deposited data

How the results depend on the processing

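No member changed direction under any alternative. The median difference of the 6 simple keratins (HBC minus RBC, log2) was 2.54, and it was 2.43 with values as deposited, 2.78 with equal medians, 2.44 with equal sums and 2.36 under quantile normalization. These scalings moved the median of all tested genes from -0.45 to -0.56, -0.20, -0.55 and 0.04. The number of genes called higher in HBCs was 2105 and became 3515 under quantile normalization, and that called higher in RBCs was 5619 and became 3238. Leaving out each culture in turn kept both counts over all genes within 1.5 times. Among single genes and single lists, 415 alternative values kept their call or stayed within the limits used, which were 1 SD of the cultures for a member's difference and 1.5 times for a list's count. Beyond these limits 36 moved, 9 named genes' values lost a call and 1 turned, Sync under quantile normalization (0.96). Most of the 36 were differences of the members. Those of Krt7, Krt8, Krt18, Krt19 and Krt23 moved with each other scaling, and that of Krt20 with both pseudocounts. Krt7 and Krt19 also moved without HBC library 1. The cause of these changes was not tested. The Krt20 difference depends on the pseudocount (12.54 with 0.1 and 6.91 with 5), since it is listed at 0 in RBCs. No paired analysis was possible because the RBC group has a single library. That library has no measured spread, and depth in reads is unknown.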

Other observations

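Most listed squamous and hillock cell genes, the markers of flat mucosal cells above the basal layer, accompanied the simple keratins in the cultures. Of 10 tested, 7 were called higher in HBCs by limma and 2 in RBCs, against 12.8% and 34.2% of all genes. The list's summed level was 85756 to 87428 in the cultures and 7938 in RBCs. Ecm1, an extracellular matrix glycoprotein, reached 26837 ± 851 in HBCs but 111 in RBCs, and the envelope precursor Sprr3 849 ± 37.7 and 60.9. The galectin Lgals3 was the highest of the list in RBCs (3595 against 11035 ± 145). The exceptions were Krt10 and Krt4, both higher in RBCs, and Sprr1b, which was not called (2.50 ± 2.29 in HBCs and 0 in RBCs). Krt13, Krt6a, Krt10 and Krt4 were also counted among the other keratins above. Among 10 leukocyte genes, Cd68 alone was called higher in the cultures (514 ± 42.5 against 65.5), while Ptprc, which defines leukocytes, was at 0.248 ± 0.215 there.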
